A study of Homo sapiens with 4 samples.

Results

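The 10 genes described here encode giant adhesion proteins of the cell surface. They were FAT1, FAT3 and FAT4, DCHS1, TENM2, TENM3 and TENM4, and CELSR1, CELSR2 and CELSR3, taken by gene name from 31907 names with a count in any library. The genes were selected on their counts in these same libraries, the differences between PBS and rIL-17B included, so those differences are given as a description, and no p is given for a member. The cells were HGC-27, an established line from a human gastric carcinoma. Total RNA was sequenced from 2 libraries of HGC-27 cells given PBS and from 2 libraries of cells given 200 ng/ml recombinant human IL-17B (rIL-17B), each for 48 h, after reverse transcription from an oligo-dT primer and amplification by PCR (Smart-seq2). The labels do not say whether replicates came from separate cultures, so the spread between them may be technical. No genotype change was named for any group. All 4 libraries were labelled as HGC-27, although the extract protocol speaks of monocytes. Whether they are of this line was not tested for any library, including rIL-17B replicate 1, which stood apart.

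FAT cadherins are very large cadherins that hold neighbouring cells together and signal on growth and polarity. FAT4 binds the Dachsous cadherin DCHS1 on the adjacent cell, and this pair is linked to the Hippo pathway, which restrains the coactivators YAP and TAZ. CELSR proteins are 7-pass cadherin receptors and core members of planar cell polarity, the system that aligns cells within a sheet. Teneurins (TENM genes) are single-pass proteins that bind latrophilin receptors across the cell contact and are best known for guiding neuronal wiring.

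The 4 libraries held between 12888029 and 17555879 counts on gene names, and the limit of detection, set at 3 counts, was between 0.171 and 0.233 CPM. CPM is the count divided by the total of the library and scaled to counts per 1e6. rIL-17B replicate 1 stood apart from the other libraries. Between 2899 and 3571 of the 16361 genes tested differed at least 2-fold between it and another library, against between 84 and 294 for the other pairs (CPM on TMM-scaled library sizes, 0.5 CPM added to each value). Each result is therefore given for both rIL-17B libraries. Of the 7 epithelial markers, all were listed, but CDH1 (E-cadherin) had between 7 and 11 counts per library, and of the 6 gastric markers GKN2 and TFF1 were at 0 and the others summed to between 1.31 and 3.18 CPM. The summed level of 7 mesenchymal markers was 47044 and 46355 CPM with PBS, 754 CPM in rIL-17B replicate 1 and 39313 CPM in rIL-17B replicate 2, and all 7 were at least 2-fold lower in replicate 1 than in both PBS libraries. The summed level of 8 neural and glial markers was 426 and 655 CPM under PBS against 60.1 and 319 CPM in the rIL-17B libraries (replicate 1, then 2), where 6 of the 8 were at least 2-fold lower in replicate 1 and OLIG2 was at 0 counts there. The 7 epithelial markers summed to 785 and 793 CPM under PBS and to 1827 and 1008 CPM in the rIL-17B libraries (replicate 1, then 2). KRT8 and KRT18 made up most of this sum, with 601 and 169 CPM in PBS replicate 1 and 1457 and 355 CPM in rIL-17B replicate 1. The 4 endothelial markers summed to 22.2 and 30.5 CPM under PBS and to 1.03 and 18.7 CPM under rIL-17B. The 6 leukocyte markers summed to between 8.55 and 10.3 CPM in every library, and CSF1R held 8.14 of the 8.55 CPM in rIL-17B replicate 1. All 4 endothelial and 3 of the 6 leukocyte markers were at least 2-fold lower in replicate 1, and among epithelial markers KRT8 and KRT18 were 2-fold higher and KRT19 lower. The part of these markers in the results below was not tested, and a change in the kinds of cells cannot be told apart from a change in RNA per cell.

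All 10 genes were expressed above the limit of detection in both PBS libraries and passed the filter on low counts. Levels of different genes were compared per kilobase of exon (CPM per kb). This takes reads to cover the exons evenly, which was not measured in these libraries primed with oligo-dT. FAT1, which steers actin through its cytoplasmic tail, was the highest with a mean of 17.8 CPM per kb over the PBS libraries, above 85.7% of the 16093 tested genes with a known length. CELSR2 followed with 5.80 and 8.37 CPM per kb and CELSR1 with 5.95 and 6.82 CPM per kb, and their PBS values overlapped. CELSR3 had 3.89 and 4.29 CPM per kb, TENM3 had 3.42 and 4.01 and TENM2 had 2.49 and 4.41 CPM per kb, each overlapping the next in order. FAT4 had 3.14 and 2.78 CPM per kb and overlapped TENM2. The lowest were DCHS1 at 2.15 and 2.70, FAT3 at 1.40 and 2.38 and TENM4 at 1.57 and 1.44 CPM per kb, and these 3 again overlapped from one to the next. Steps without overlap separated FAT1 from CELSR2, CELSR1 from CELSR3, and FAT4 from DCHS1.

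The genes share great length. Their exons covered between 10.8 and 19.3 kb, where the median of the tested genes was 4.66 kb, and their genomic spans ran from 25.7 kb for CELSR2 to 979 kb for TENM2 (GENCODE 29, GRCh38). FAT1 (chromosome 4, 186587783 to 186726722), FAT4 (chromosome 4, 125316399 to 125492932) and TENM3 (chromosome 4, 182143987 to 182803024) lie on one chromosome, with FAT1 3.78 Mb from TENM3. FAT3 (chromosome 11, 92352096 to 92896470), TENM4 (chromosome 11, 78652831 to 79440948) and DCHS1 (chromosome 11, 6621323 to 6655854) lie on another. TENM2 is on chromosome 5 (167284799 to 168264157), CELSR1 on chromosome 22 (46360834 to 46537170), CELSR2 on chromosome 1 (109250019 to 109275750) and CELSR3 on chromosome 3 (48636469 to 48662915).

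RefSeq sequences before the start of transcription (GRCh38.p14) matched 6 of the 10 genes. Windows of 3 teneurins are shown, because these paralogues differed in the counts below and each has a RefSeq window: TENM2 and TENM4 were at 5 and 0 counts in rIL-17B replicate 1, and TENM3 was within the range of PBS in both rIL-17B libraries. Each is the 250 bases before a RefSeq start, 5′ to 3′ on the strand of the gene, with CpG dinucleotides in capitals. For none of the 3 was the sequence just after the start found in a GENCODE transcript of the gene. The TENM2 window is chr5:167754679-167754928 (+), the RefSeq start that falls within the GENCODE gene. The TENM4 window is chr11:79441031-79441280 (-). The TENM3 window is chr4:182143713-182143962 (+), the RefSeq start that held no annotated exon. It lies before the GENCODE gene, so the choice differs from that for TENM2, and contrasts between the windows depend on it. Which start these cells use was not measured.
TENM2: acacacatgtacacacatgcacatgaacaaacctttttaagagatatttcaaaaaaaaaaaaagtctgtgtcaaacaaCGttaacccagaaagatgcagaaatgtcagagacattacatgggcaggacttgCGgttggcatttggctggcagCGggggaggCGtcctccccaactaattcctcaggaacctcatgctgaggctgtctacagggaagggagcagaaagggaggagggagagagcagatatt
TENM4: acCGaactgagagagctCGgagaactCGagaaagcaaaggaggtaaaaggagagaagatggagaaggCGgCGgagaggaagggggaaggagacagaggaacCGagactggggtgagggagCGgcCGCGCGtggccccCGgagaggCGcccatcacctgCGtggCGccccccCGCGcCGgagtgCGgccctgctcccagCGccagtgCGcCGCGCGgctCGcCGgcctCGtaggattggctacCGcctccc
TENM3: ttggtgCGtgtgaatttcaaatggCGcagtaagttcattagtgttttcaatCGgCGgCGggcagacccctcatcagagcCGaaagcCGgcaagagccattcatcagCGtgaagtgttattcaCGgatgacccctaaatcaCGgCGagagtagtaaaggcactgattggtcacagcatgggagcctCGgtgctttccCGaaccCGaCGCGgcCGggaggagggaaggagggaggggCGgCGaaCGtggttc

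The TENM2 window held 4 CpG, the TENM4 window 27 and the TENM3 window 20, and the median over 35116 RefSeq windows of the same length was 11. The G and C content was 46.4% for TENM2, 69.2% for TENM4 and 56.8% for TENM3. RefSeq gives a further start for TENM2 and for TENM3. The window before the other TENM2 start (chr5:167072992-167073241) held 1 CpG with a G and C content of 29.2%. That before the other TENM3 start (chr4:182448766-182449015) held 35 CpG with 77.2%, and the sequence just after this start was found in a GENCODE transcript. On either strand, the GC box GGGCGG was in the TENM3 window and not in those of TENM2 and TENM4, and 42.6% of all windows held it. The CCAAT letters were in the TENM3 and TENM4 windows and not in that of TENM2, against 32.0% of all windows. The TATA box TATAAA and the TEAD motif GGAATG were in none of the 3 windows shown, while the other TENM2 window held both. Of all windows, 10.7% held TATAAA and 11.9% held GGAATG. The other TENM3 window held GGGCGG and none of the other letters searched.

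Across all 16361 genes tested, 0 passed an adjusted p of 0.05 between rIL-17B and PBS in edgeR's quasi-likelihood test in either direction (0%), and nothing is read from this for the 10 genes. Before adjustment, 226 genes (1.38%) had p below 0.05 in edgeR and 457 in DESeq2, which also passed 0. The 10 genes had a median log2 fold change of -0.56, beside -0.03 over all genes tested. Of the 10 genes, 3 were higher and 7 lower, beside 7753 higher and 8608 lower of all 16361 genes tested. The 2 rIL-17B libraries differed so much that each was then set against the same PBS libraries on its own. In rIL-17B replicate 1, 4 of the 10 genes were at least 2-fold below both PBS libraries, where 19.3% of all genes tested were, and 0 were 2-fold above both, where 2.54% were. The same 4 were at least 10-fold below both PBS libraries, beside 10.4% of all genes tested. By any amount, 6 of the 10 lay below both PBS libraries in replicate 1 (40.8% of all genes) and 3 above (50.1%). In rIL-17B replicate 2, 0 of the 10 genes were 2-fold below (1.05% of all genes) and 0 were 2-fold above both PBS libraries (0.244%), and 0 were 10-fold below (0.00611%). By any amount, 6 lay below (36.1%) and 2 above (37%). Between the PBS libraries, 0 of the 10 differed 2-fold, where 3.15% of all genes did. The genes were chosen with these values known, so nothing is read from these shares.

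**Figure D1:**
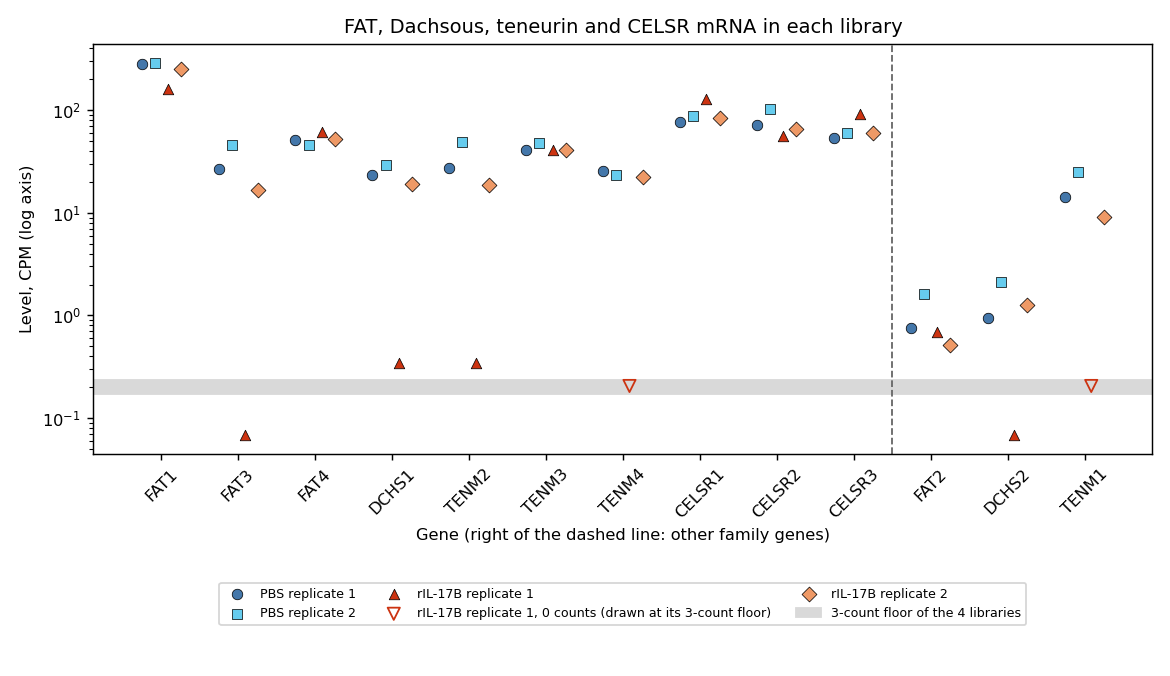
Level of each gene in CPM on a log axis, with 1 point per library (blue, PBS; red and orange, rIL-17B); open triangles mark 0 counts, drawn at the 3-count floor of that library, and the grey band is the range of that floor. FAT3, DCHS1, TENM2 and TENM4 lie at, below or just above the floor in rIL-17B replicate 1 and lie between 16.6 and 22.1 CPM in replicate 2.

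Among the FAT cadherins, FAT3 was at 1 count in rIL-17B replicate 1, FAT1 was lower there and FAT4 was not. FAT3, a FAT cadherin studied mostly in neurons, had 27.0 and 45.9 CPM with PBS, 0.0684 CPM in rIL-17B replicate 1 (1 count) and 16.6 CPM in replicate 2. Both rIL-17B libraries lay below both PBS libraries. The pooled PBS level was 518 times that of replicate 1, with a counting interval of 92.7 to 20470, and 2.13 times that of replicate 2 (1.87 to 2.43; 95%, exact, here and below covering counting error only, since PCR reads are not independent molecules). The PBS libraries themselves differed 1.70-fold in FAT3.

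FAT1 had 285 and 291 CPM with PBS, 161 CPM in rIL-17B replicate 1 and 255 CPM in replicate 2. Replicate 1 held 55.9% of the PBS mean and replicate 2 held 88.3%, while the PBS libraries differed by a factor of 1.02. FAT4, the receptor of DCHS1, had 51.6 and 45.6 CPM under PBS against 60.7 and 52.2 CPM under rIL-17B, where both rIL-17B values were the higher ones by a narrow margin (log2 fold change 0.14, standard error 0.12). FAT2, the one FAT gene outside the list, was near the limit of detection, with between 9 and 21 counts per library.

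The make-up of the family differed in the same library. FAT1 held 78.2% and 75.8% of all FAT counts with PBS, 72.4% in rIL-17B replicate 1 (Wilson interval 70.8 to 73.9%) and 78.6% in replicate 2. The share of FAT4 was 14.2% and 11.9% with PBS, 27.3% in replicate 1 (25.8 to 28.8%) and 16.1% in replicate 2. That of FAT3 was 7.40% and 11.9% with PBS, 0.0307% in replicate 1 and 5.13% in replicate 2.

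DCHS1, the ligand of FAT4, had 23.1 and 29.1 CPM with PBS, 0.342 CPM in rIL-17B replicate 1 (5 counts) and 19.0 CPM in replicate 2. The pooled PBS level was 75.4 times that of replicate 1 (32.2 to 233) and 1.36 times that of replicate 2 (1.19 to 1.55). The mRNA levels of ligand and receptor therefore parted in rIL-17B replicate 1. Per kilobase, DCHS1 stood at 0.684 and 0.974 of the FAT4 level in the PBS libraries, at 0.00861 in rIL-17B replicate 1 and at 0.555 in replicate 2. DCHS2, the other Dachsous gene, was low throughout, with 15 and 27 counts under PBS, against 1 and 22 counts in the rIL-17B libraries (replicate 1, then 2). FJX1, a Golgi kinase that acts on FAT and Dachsous cadherins, had 17.1 and 16.8 CPM under PBS against 13.4 and 15.1 CPM under rIL-17B (log2 fold change -0.32, standard error 0.19, adjusted p = 0.661 in edgeR's quasi-likelihood test).

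The teneurins differed among themselves in rIL-17B replicate 1. TENM2 had 27.5 and 48.7 CPM with PBS, 0.342 CPM in rIL-17B replicate 1 (5 counts) and 18.8 CPM in replicate 2. The pooled PBS level was 108 times that of replicate 1 (46.2 to 334) and 1.97 times that of replicate 2 (1.74 to 2.23), and the PBS libraries differed 1.77-fold. TENM4 had 25.7 and 23.5 CPM with PBS, 0 counts in rIL-17B replicate 1 and 22.1 CPM in replicate 2. Against the 3-count floor of replicate 1, TENM4 was at least 119.9-fold lower there than the PBS mean. Replicate 2 held 89.8% of the PBS mean of TENM4, a difference smaller than its counting error (PBS over replicate 2, 1.12, 0.987 to 1.27).

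TENM3 was unlike TENM2 and TENM4. It had 40.9 and 48.1 CPM under PBS against 41.2 CPM in each rIL-17B library, so that both rIL-17B values lay within the range of the PBS values. TENM1 on the X chromosome, the fourth teneurin and no member of the list, had 14.4 and 25.1 CPM with PBS, 0 counts in rIL-17B replicate 1 and 9.06 CPM in replicate 2, and its counts are uncertain because the gene overlaps STAG2 on the other strand. Of all teneurin counts, TENM3 held 37.7% and 33.1% under PBS, 45.2% in rIL-17B replicate 2 and 99.2% in replicate 1 (602 of 607 counts, Wilson interval 98.1 to 99.7%). For TENM1 and TENM4, 0 of 607 counts allows a share of up to 0.494%. Summed, the 4 teneurins stood at 109 and 145 CPM with PBS, at 41.5 CPM in replicate 1 and at 91.1 CPM in replicate 2.

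**Figure D2:**
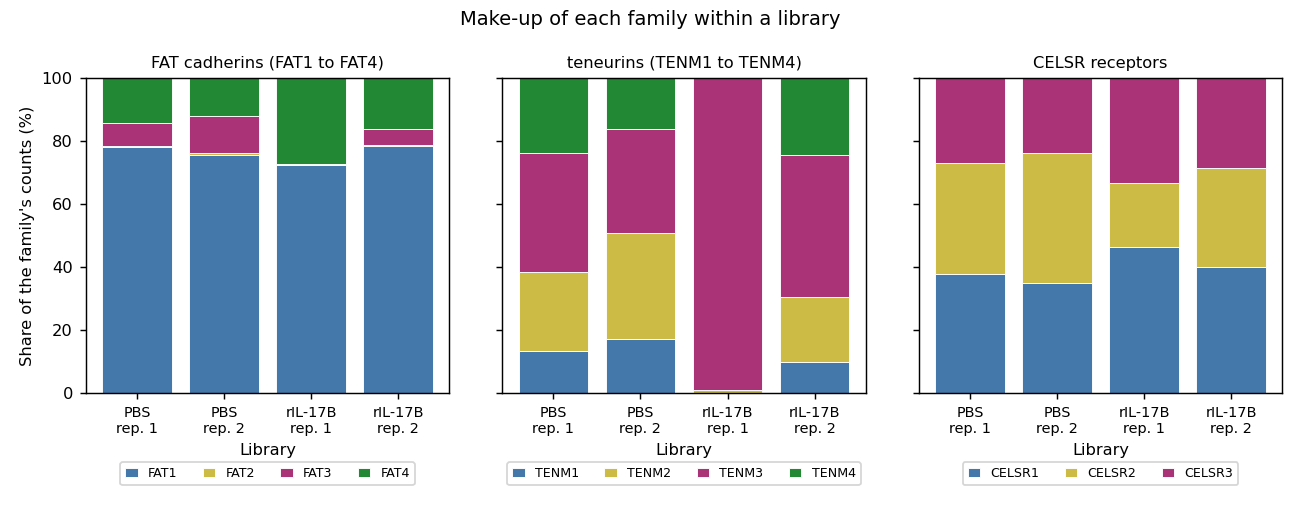
Share of each family's counts held by each gene within a library, in percent, as stacked bars for the FAT cadherins, the teneurins and the CELSR receptors. TENM3 holds 99.2% of the teneurin counts in rIL-17B replicate 1 and between 33.1% and 45.2% in the other 3 libraries.

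The 3 CELSR genes had between 767 and 1872 counts in every library. CELSR1 had 76.1 and 87.4 CPM with PBS, 128 CPM in rIL-17B replicate 1 and 83.7 CPM in replicate 2, so that only replicate 1 lay outside the PBS range, at 1.57 times the PBS mean. CELSR3 had 53.9 and 59.5 CPM with PBS, 91.8 CPM in replicate 1 and 59.6 CPM in replicate 2, which was just above both PBS values. CELSR2 went the other way, with 71.6 and 103 CPM under PBS against 55.5 and 65.5 CPM in the rIL-17B libraries (replicate 1, then 2), both below both PBS libraries. The PBS libraries differed 1.44-fold in CELSR2, more than in CELSR1 (1.15-fold) and CELSR3 (1.10-fold).

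Within the CELSR counts, the share of CELSR2 was 35.5% and 41.3% with PBS, 20.1% in rIL-17B replicate 1 (18.9 to 21.4%) and 31.4% in replicate 2. CELSR1 held 37.7% and 34.9% with PBS, 46.5% in replicate 1 and 40.1% in replicate 2. Summed over the 3 genes, the level was 202 and 250.2 CPM with PBS, 275 CPM in replicate 1 and 209 CPM in replicate 2. CELSR1 and CELSR3 had the most similar profiles of any 2 of the 10 genes, with a Euclidean distance of 0.06 between their centred log2(CPM + 0.5) values over the 4 libraries, and FAT3 and CELSR3 the most different, with a distance of 5.54.

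Taking both rIL-17B libraries together, 6 of the 10 genes (FAT1, FAT3, DCHS1, TENM2, TENM4 and CELSR2) were lower in both than in both PBS libraries, where 27.5% of all genes tested were, and 2 (FAT4 and CELSR3) were higher in both, where 31.5% were. The order PBS replicate 2, PBS replicate 1, rIL-17B replicate 2, rIL-17B replicate 1, from high to low, was shown by FAT1, FAT3, DCHS1, TENM2 and CELSR2, and by 15.3% of all genes tested. The summed neural and glial markers given above had this order too, while TENM4 had its highest value in PBS replicate 1, as had the summed mesenchymal markers. Single markers differed from these sums. FN1 made up most of the mesenchymal sum (33131 and 32458 CPM with PBS), while CDH2, ZEB1, COL1A1 and PDGFRB each had the order above. Among the neural and glial markers, GFAP and TUBB3 were highest in PBS replicate 1. No likeness of a member to a cell type is read from this.

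**Figure D3:**
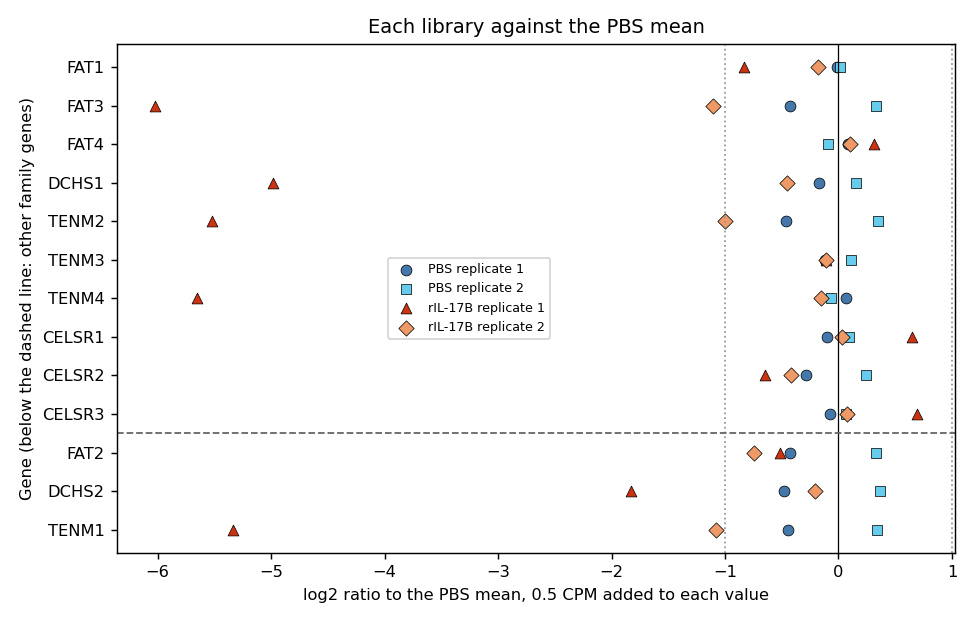
log2 ratio of each library to the PBS mean, with 0.5 CPM added to every value, for the 10 genes and, below the dashed line, the other family genes; dotted lines mark 2-fold. FAT3, DCHS1, TENM2 and TENM4 stand far to the left in rIL-17B replicate 1, and CELSR1 and CELSR3 stand to the right of 0 in that library.

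For each gene, the tested gene whose profile over the 4 libraries was closest, by the same Euclidean distance, was named. For FAT3 it was FAM131B (distance 0.19; 33.8 and 51.7 CPM with PBS, 0.274 and 20.8 CPM under rIL-17B). For TENM2 it was SEMA6A, a transmembrane semaphorin (0.11; 29.1 and 52.0 CPM with PBS, 0.479 and 20.3 CPM under rIL-17B). For TENM4 it was C1R, a protease of the complement cascade (0.06; 167 and 152 CPM with PBS, 2.53 and 143 CPM under rIL-17B), and for DCHS1 it was LRRC32 (0.09; 206 and 201 counts with PBS, 0 and 187 counts under rIL-17B). The other members were closest to LCAT (FAT1), TCTN3 (FAT4), ARSG (TENM3), TDP1 (CELSR1), ALG1L6P (CELSR2) and C15orf39 (CELSR3), at distances between 0.005 and 0.04.

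The chromosomal neighbours of the 10 genes were counted next. Not all are close: distances ran from 0.976 kb (SLC26A6 to CELSR3) to 4701 kb (AGA to TENM3). Of the 20 nearest tested protein-coding genes on either side, 2 were at least 2-fold below both PBS libraries in rIL-17B replicate 1 (CYP4V2 and FAM181B; 19.3% of all genes), 2 were 2-fold above (TRIML2 and WWC1; 2.54%), and 0 were 2-fold below in replicate 2 (1.05%). TPP1, a lysosomal peptidase gene 1.84 kb from DCHS1, had 141 CPM in each PBS library and 131 and 132 CPM in the rIL-17B libraries (replicate 1, then 2). MRPL17, on the other side of DCHS1, had 59.6 and 57.9 CPM under PBS against 106 and 64.2 CPM under rIL-17B. WWC1, which encodes the Hippo regulator KIBRA 27.5 kb from TENM2, had 25.4 and 23.4 CPM with PBS, 53.2 CPM in replicate 1 and 30.6 CPM in replicate 2.

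For TENM4, NARS2 at a distance of 78.0 kb had 14.4 and 13.6 CPM under PBS against 21.3 and 15.6 CPM under rIL-17B, while FAM181B, 3289 kb away on the other side, had 149 and 203 counts under PBS, against 0 and 130 counts in the rIL-17B libraries (replicate 1, then 2). The neighbours of FAT3, CHORDC1 (2129 kb away) and SLC36A4 (248 kb away), stood at 1.27 and 1.20 times the PBS mean in replicate 1. The other neighbour of TENM2, MAT2B at a distance of 3765 kb, stood at 1.16 times the PBS mean. Beside FAT1, CYP4V2 had 288 and 258 counts under PBS, against 0 and 222 with rIL-17B, and TRIML2 had between 18 and 53 counts in every library. The neighbours of FAT4 (ANKRD50 and INTU), TENM3 (AGA and DCTD), CELSR1 (TRMU and GRAMD4), CELSR2 (SARS and PSRC1) and CELSR3 (SLC26A6 and NCKIPSD) stood between 0.488 and 1.62 times the PBS mean in replicate 1.

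**Figure D4:**
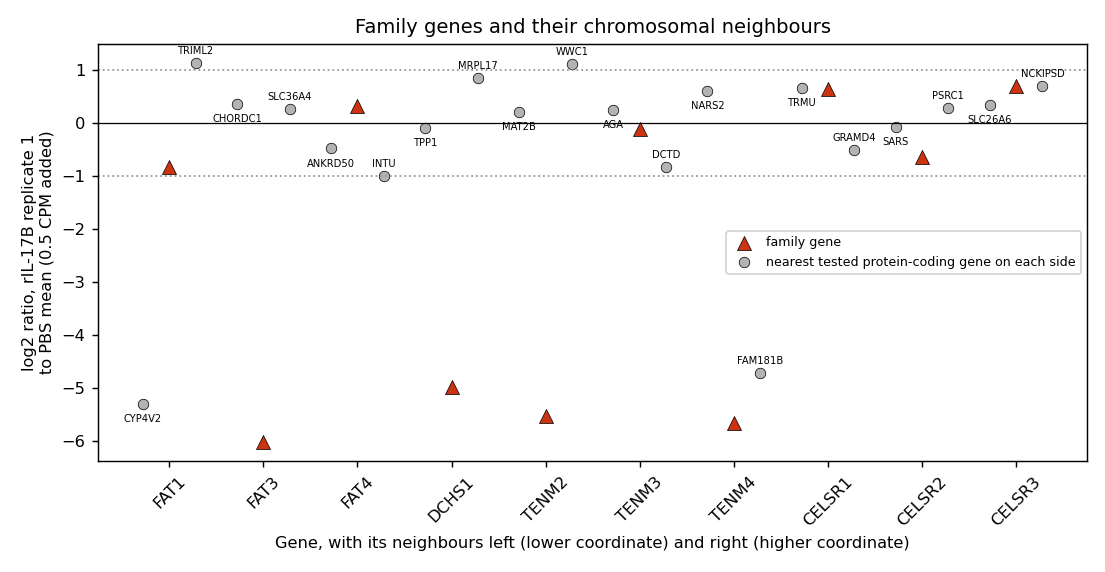
log2 ratio of rIL-17B replicate 1 to the PBS mean, with 0.5 CPM added, for each of the 10 genes (red triangles) and for the nearest tested protein-coding gene on each side (grey circles); dotted lines mark 2-fold. TENM2 lies near the bottom while MAT2B (3765 kb away) and WWC1 (27.5 kb away) lie above 0, and DCHS1 likewise lies far below TPP1 and MRPL17.

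Other genes with long exons were counted in the same way. Of 1428 other tested genes with exons of at least 10.8 kb, the length of the shortest of the 10 genes, 21.4% were at least 2-fold below both PBS libraries in rIL-17B replicate 1 and 1.82% were 2-fold above. In rIL-17B replicate 2 the shares were 0.56% and 0.07%. The 4 genes 10-fold below PBS had between 10.8 kb (DCHS1) and 19.3 kb (FAT3) of exon and the 6 others between 12.0 kb (TENM3) and 16.4 kb (FAT4).

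Related genes were taken from 6 lists with 56 genes, all of them tested: 5 lists of genes that act with these adhesion proteins or downstream of them, and 1 of the other family genes FAT2, DCHS2 and TENM1 with FJX1. In edgeR's quasi-likelihood test, 0 of the 56 passed an adjusted p of 0.05 (smallest 0.661) and 0 had an unadjusted p under 0.05, while in DESeq2 0 passed and 1 had an unadjusted p under 0.05. The fold change was above 0 for 14 of the 56 and below 0 for 42 (median on the log2 scale, -0.29). Over all 16361 genes tested it was above 0 for 7753 and below 0 for 8608 (median -0.03), which also stands beside the counts by list below. In rIL-17B replicate 1, 19 of the 56 were at least 2-fold below both PBS libraries (19.3% of all genes) and 1 was 2-fold above (2.54%), and in replicate 2 there were 0 below (1.05%) and 0 above (0.244%). Without rIL-17B replicate 1, a fit in which the lone rIL-17B library is assumed to vary like the PBS pair, 7 of the 56 passed, all lower with rIL-17B, where 2.95% of all genes passed and 2.3% passed as lower (0.643% as higher). These were TENM1, ADGRL2, VANGL2, FRMD6, WWTR1, CCN2 and AMOTL1. Among these, the lowest fold changes on the log2 scale were those of TENM1, a paralogue of the members (-1.11), and VANGL2 (-1.09). The PBS libraries themselves differed 1.74-fold in TENM1. They had 7.42 and 11.7 CPM of VANGL2, against 4.44 CPM in rIL-17B replicate 2. Without rIL-17B replicate 2, 43 passed, 7 higher and 36 lower, where 23.2% and 31.9% of all genes passed in these directions, 55.1% in all.

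Latrophilins, the receptors of teneurins, and FLRT proteins, which bind latrophilins, had a negative fold change in 6 of 6 genes (median on the log2 scale, -0.89), and 0 of them passed. ADGRL2 (latrophilin 2) had 31.2 and 37.7 CPM with PBS, 0.137 CPM in rIL-17B replicate 1 (2 counts) and 24.5 CPM in replicate 2. ADGRL3 was low throughout, with 43 and 64 counts under PBS, against 1 and 47 counts under rIL-17B. ADGRL1 was more than 2-fold below both PBS libraries in replicate 1 but not near 0, with 27.0 and 29.7 CPM under PBS against 12.9 and 21.8 CPM under rIL-17B (log2 fold change -0.76, standard error 0.35, adjusted p = 0.661 in edgeR's test). FLRT3 had 29.6 and 36.2 CPM under PBS against 24.8 and 25.8 CPM under rIL-17B (log2 fold change -0.44, standard error 0.16, adjusted p = 0.661 in edgeR's test). FLRT1, at between 6 and 26 counts, had a log2 fold change of -1.03.

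The planar cell polarity core, the partners of CELSR proteins, numbered 14 genes, with a positive fold change for 6 and a negative one for 8 (0 passed). In rIL-17B replicate 1, 6 of the 14 were at least 2-fold below both PBS libraries (19.3% of all genes). Some paralogues parted there, while DVL1, DVL2 and DVL3 were all within 2-fold of both PBS libraries. How often paralogues part over all genes was not counted. VANGL2, a 4-pass membrane protein of this system, had 118 and 151 counts with PBS, 0 in replicate 1 and 78 in replicate 2. Its paralogue VANGL1 had 46.3 and 46.9 CPM under PBS against 83.7 and 54.4 CPM under rIL-17B (log2 fold change 0.48, standard error 0.20, adjusted p = 0.661 in edgeR's test). PRICKLE1 and PRICKLE2, cytoplasmic partners of VANGL proteins, had 1 and 2 counts in replicate 1 and between 55 and 177 in the other libraries, while PRICKLE3 had 15.5 and 17.7 CPM under PBS against 27.6 and 17.1 CPM under rIL-17B (log2 fold change 0.34, standard error 0.25). The Wnt receptor FZD3 had 309 and 335 counts with PBS, 90 in replicate 1 and 315 in replicate 2 (log2 fold change -0.95, standard error 0.64), beside 83.7 and 72.9 and then 78.2 and 76.7 CPM for FZD6.

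Among 19 Hippo genes, 7 had a fold change above 0 and 12 below 0 (median on the log2 scale, -0.12), and 0 passed. The 3 with the smallest p were WWTR1, WWC1 and NF2. WWTR1, which encodes TAZ, had 173 and 182 CPM under PBS against 115 and 145 CPM under rIL-17B (log2 fold change -0.51, standard error 0.20, adjusted p = 0.661 in edgeR's test). WWC1, whose levels are given above, had a log2 fold change of 0.69 with a standard error of 0.27. NF2, the upstream activator merlin, had 31.0 CPM in each PBS library and 44.6 and 35.9 CPM under rIL-17B (log2 fold change 0.30, standard error 0.12). YAP1 had 133 and 130 CPM under PBS against 117 and 136 CPM under rIL-17B, and FRMD6, an upstream FERM-domain gene, had 133 and 139 CPM under PBS against 7.32 and 105.5 CPM under rIL-17B.

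Of the 10 target genes of YAP and TEAD, 1 had a positive and 9 a negative fold change (0 passed, median log2 fold change -0.59), and 5 were at least 2-fold below both PBS libraries in rIL-17B replicate 1, beside 19.3% of all genes tested. CCN2 (connective tissue growth factor) had 802 and 776 CPM with PBS, 69.9 CPM in replicate 1 and 650 CPM in replicate 2. AMOTL1 had 73.4 and 83.1 CPM under PBS against 19.6 and 61.7 CPM under rIL-17B, AMOTL2 had 93.6 and 97.6 and then 77.3 and 89.9 CPM, and F3 (tissue factor) had 15.2 and 18.2 and then 11.0 and 15.6 CPM. The 7 mesenchymal markers were also at least 2-fold lower in replicate 1, and their relation to these target genes was not tested. The actin regulators ENAH, VASP and EVL, which bind the FAT1 tail, were within 2-fold of PBS in every library, with log2 fold changes of -0.16, -0.13 and -0.41 (smallest adjusted p = 0.661 in edgeR's test).

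**Figure D5:**
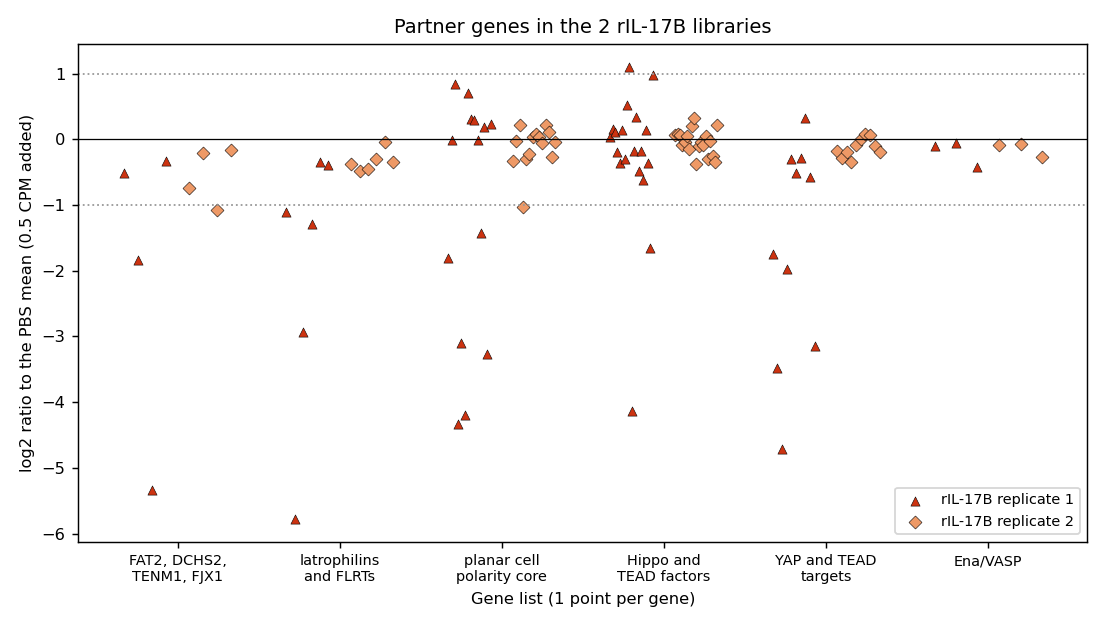
log2 ratio to the PBS mean, with 0.5 CPM added, of the 56 partner and related genes in rIL-17B replicate 1 (red triangles) and replicate 2 (orange diamonds), with 1 point per gene and library and dotted lines at 2-fold. In replicate 1, 19 of the 56 genes are at least 2-fold below both PBS libraries, and in replicate 2 the points stay closer to 0.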

How the data were processed

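Counts were analysed for 4 HGC-27 libraries (2 with PBS, 2 with rIL-17B), grouped by their titles. The authors deposited whole-number counts of reads per gene name, without normalization and without genes at 0. The submitters' processing notes list hg38, Bowtie2 2.2.3, HISAT2 2.1.0, TopHat2 and HTSeq 0.6.0 without roles, while neither annotation nor strand setting is given in the sources used here, so that counts of overlapping genes are uncertain. Repeated names with equal counts were used once, date-like names were left out (22 to 25 entries per library), and missing genes were set to 0. CPM used the total of each library. Depth set a floor of 3 counts. All genes were fitted with edgeR 4.0.16 in R 4.3.3 (TMM, filterByExpr, quasi-likelihood F test, Benjamini-Hochberg adjustment). The standard errors given are approximate: each is the absolute log2 fold change divided by the square root of the F statistic. The fit was also run on simulated counts. These held no outlying library, so they cannot show how the fit behaves with rIL-17B replicate 1, and nothing is read from them. DESeq2 1.42.0, upper-quartile normalization, no filter, a replicate block and leaving out each library were alternatives. Tables and figures were made with Python 3.11.15, with gene models of GENCODE 29 and promoter sequences of RefSeq.

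The members, the partner lists and the tests were chosen with earlier results of these data known. The genes named were the 10 members, FAT2, DCHS2, TENM1 and FJX1, the 3 genes with the smallest p in each other list, the closest profile for each member and the nearest tested protein-coding genes. ADGRL2, ADGRL3, VANGL2, PRICKLE1, PRICKLE2, FZD6, DVL1, DVL2, DVL3, YAP1, FRMD6 and CCN2 were named after their values were seen.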

Additional observations from a re-analysis of the deposited data

How the results depend on the processing

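The count of 0 genes past the threshold, and of 0 partner genes, was the same with the replicate number as a block (0 and 0), under upper-quartile scaling, with no low-count filter, with DESeq2 and without either PBS library. The deviations of libraries with one number from their group means correlated at 0.08 over the genes tested, so the numbers were not taken as pairs. With the block the median log2 fold change of the 10 genes was -0.58. This median hides the low genes. The block moved FAT3 from -2.12 to -3.98, DCHS1 from -1.44 to -3.07, TENM2 from -1.99 to -3.53 and TENM4 from -1.16 to -3.46. FAT1 went only from -0.53 to -0.58. Leaving out 1 library moved the counts most: over the 4 libraries left out in turn, between 0 and 9489 genes and between 0 and 43 partner genes passed, and the median log2 fold change lay between -0.88 and -0.17. The highest counts came without rIL-17B replicate 2, and 504 genes and 7 partner genes passed without rIL-17B replicate 1, where the spread rests on the PBS pair. The number of the 10 genes at least 2-fold below both PBS libraries in rIL-17B replicate 1 was 4 with TMM-scaled library sizes, with 0.5 CPM added and with either PBS library left out, and 5 at a limit of 1.5-fold, which adds FAT1. In replicate 2 it was 0, with 1 at a limit of 1.5-fold, and between 0 and 2 with 1 PBS library left out (FAT3 and TENM2 against PBS replicate 2 alone). The order of the genes in PBS was the same with the longest transcript as the length. No log2 fold change of the 10 genes changed sign, but sizes were not stable. That of TENM4 was -0.16 without rIL-17B replicate 1 and -11.5 without rIL-17B replicate 2. Depth limits FAT3, DCHS1, TENM2 and TENM4 in rIL-17B replicate 1, where the folds rest on 0 to 5 counts, and the cause of the difference between the rIL-17B libraries was not tested.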
